A study of Mus musculus with 10 samples.

Results

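The genes described here belong to the S100, annexin and galectin families, with vimentin and a LIM protein gene, and were followed in regulatory T (Treg) cells of tumours and lymph nodes. They are S100a4, S100a6, S100a10, S100a11, Anxa1, Anxa2, Lgals1, Lgals3, Vim and Crip1. These genes were chosen by name, as genes often raised together in activated or tissue-resident T cells, and the rows of the count table with those 10 symbols were taken. Earlier results of these data were known when the choice was made. They are 10 of the 55291 genes counted, and all 10 were among the 20068 genes that passed the filter on low counts. The libraries were made from total RNA of Treg cells of Foxp3YFP-cre mice, which express a yellow fluorescent protein and Cre recombinase from the Foxp3 gene, so that every group carries this reporter allele. In the LN group (4 libraries) the cells came from lymph nodes of mice without a tumour. In the Hepa1-6 group (4 libraries) they came from subcutaneous tumours of Hepa1-6, a mouse hepatoma line, taken on day 23. In the E.G7 group (2 libraries) they came from subcutaneous tumours of E.G7, a mouse T lymphoma line derived from EL4 that expresses ovalbumin, taken on day 21. Cells were sorted after CD4+ cells had been isolated. The labels give no age, do not tie a library to an animal, and leave tissue, tumour line and day confounded, and p-values therefore cover only library-to-library variation, which may be technical.

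S100 proteins are small calcium-binding proteins of the EF-hand type that pair with each other and bind target proteins at membranes and the cytoskeleton. Annexins bind phospholipid membranes when calcium rises, and particular S100 proteins bind particular annexins: S100A10 forms a complex with annexin A2 at the plasma membrane, and S100A11 binds annexin A1. Galectins are lectins that bind galactose-containing glycans on cell surfaces; galectin-1 is made by Treg cells and galectin-3, also known as Mac-2, is abundant in macrophages. Vimentin is the intermediate filament of leukocytes and mesenchymal cells, and Crip1 encodes a small protein with a zinc-binding LIM domain.

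Library totals ran from 22665563 to 26665325 counts. Genes that define T and Treg cells (8 genes, among them Trac, Cd3e, Cd4 and Foxp3) summed to 5654 to 5772 CPM (counts scaled to a common library size, with TMM factors) in LN, 5751 to 5946 in Hepa1-6 and 5019 to 5070 in E.G7 libraries. Of the 8, 5 were called lower and 1 higher in Hepa1-6 than in LN, and 7 lower and 1 higher in E.G7. Over all genes tested, 31.1% were called lower and 37.0% higher in Hepa1-6, and 27.2% and 32.7% in E.G7. Ctla4, the gene called higher in both, stood at 410, 1409.5 and 1261 CPM on average in LN, Hepa1-6 and E.G7. Lck went from 1568 to 972 and 991 CPM, so like sums do not mean that each gene was level. Foxp3, which marks Treg cells, stood at 109 ± 10.8 CPM in LN (SD, n = 4), 82.0 ± 11 in Hepa1-6 (SD, n = 4) and 50.2 ± 4.34 in E.G7 (SD, n = 2). Markers of other cells moved with the groups. The 14 macrophage and neutrophil markers summed to 25.5 to 37.6 CPM in LN, 4102 to 4426 in Hepa1-6 and 753 to 785 in E.G7 libraries. Lyz2 was at 23.1, 1980 and 552 CPM on average. Ly6g, a neutrophil marker, was low in every group, at 0 in all LN libraries and at means of 0.36 CPM in Hepa1-6 and 0.018 in E.G7. The 10 dendritic cell and MHC class II genes summed to 157 to 179, 9505 to 9889 and 1727 to 1787 CPM, and the 15 hepatoma markers to 42.0 to 48.0, 2241 to 2429 and 136 to 153 CPM, in the same order. Most of the hepatoma sum in E.G7 was Apoe, at 24.9, 631 and 128 CPM on average in LN, Hepa1-6 and E.G7, while Alb stood at 0.039, 370 and 0.055. Of 9 hepatoma genes tested, 9 were called higher in Hepa1-6 than in LN, and 6 higher and 2 lower in E.G7. The 12 stromal and endothelial markers summed to 225 to 242, 1120 to 1210 and 191 to 222 CPM; Pecam1, an endothelial gene, went from 228 CPM in LN to 72.6 and 78.7, while 9 of the 11 tested were called higher in Hepa1-6 and 10 of 11 in E.G7 than in LN, such as Fn1 at 0.354, 878 and 31.7 CPM. The 10 CD8 T and NK markers summed to 29.8 to 34.4, 516 to 556 and 145 to 146 CPM. The 10 B cell genes were highest in LN, at 859 to 977, 386 to 460 and 649 to 655 CPM. The 6 thymocyte and lymphoma genes summed to 196 to 205 CPM against 17.6 to 20.01 in LN and 64.2 to 75.4 in Hepa1-6, a sum carried in E.G7 by Trap1a, a tumour antigen gene, at 127 CPM and Dntt at 46.6 CPM; Cd8b1 was highest in Hepa1-6, at 66.5 against 27.1 CPM in E.G7, and Rag1 was at 0 in all groups. The part of these cells in the values that follow was not tested, and in bulk libraries fewer cells of a type and less RNA per cell cannot be told apart.

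All 10 genes were higher in both kinds of tumour Treg library than in lymph node Treg libraries. In Hepa1-6 against LN, 10 of 10 passed the test as higher (edgeR quasi-likelihood test, adjusted p below 0.05), where 37.0% of all genes tested did, and 0 passed as lower, where 31.1% of all genes did. In E.G7 against LN, 10 of 10 passed as higher, beside 32.7% of all genes, and 0 as lower, beside 27.2%. The median log2 fold change of the 10 genes was 2.35 in Hepa1-6 against LN, beside 0.04 over all genes tested, and 2.28 in E.G7 against LN, beside 0.01. In Hepa1-6 against E.G7, 7 of 10 passed as higher, beside 26.1% of all genes, and 0 as lower, beside 19.6%, with a median of 0.72 beside 0.06 over all genes. DESeq2 and limma-voom also called 0 of the 10 lower in these comparisons, and 0 were lower at an unadjusted p under 0.05. Some other settings called Lgals1 lower in Hepa1-6 than in E.G7, such as pan T cell scaling (edgeR adjusted p = 0.0228) and upper-quartile scaling (0.048). Both comparisons with LN share the LN libraries. The 10 genes were chosen with earlier results of these data known, so their counts beside those of all genes are descriptive. The level of each gene in every library shows no overlap between LN and either tumour group for any of the 10. The share of all genes tested without such overlap was not counted, so the lack of overlap is not read as particular to the 10. Together the 10 genes took 0.109% to 0.1296% of all counts in LN, 0.468% to 0.533% in Hepa1-6 and 0.342% to 0.361% in E.G7 libraries.

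**Figure D1:**
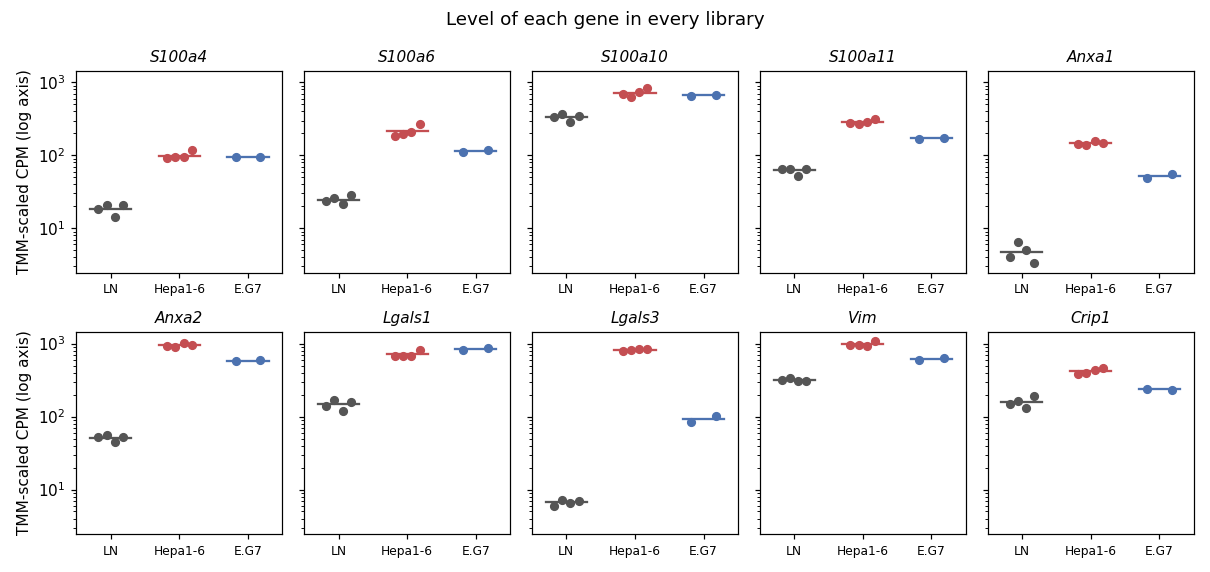
Level of the 10 genes in each of the 10 libraries, in TMM-scaled CPM on a log axis (points: libraries, lines: group means). Lgals3 runs from 5.85 to 7.25 CPM in the 4 LN libraries to 791 to 834 CPM in the 4 Hepa1-6 libraries, and S100a10 from 286 to 373 to 628 to 834 CPM.

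The S100 members lie on mouse chromosome 3 (mm10): S100a4 at chr3:90603771-90606045 and S100a6 at chr3:90612882-90624181, and farther along the chromosome S100a11 at chr3:93520488-93526287 and S100a10 at chr3:93555080-93564643, all on the plus strand. Anxa2 is at chr9:69453620-69491795 (plus), Anxa1 at chr19:20373428-20390944 (minus), Lgals1 at chr15:78926725-78930465 (plus), Lgals3 at chr14:47367751-47386160 (plus), Vim at chr2:13573927-13582826 (plus) and Crip1 at chr12:113146316-113153879 (plus). All are protein-coding genes, and the spans in the count table equal those of GENCODE M21. Counts cover the exons, 511 bases in S100a11 to 4743 bases in Vim. No source used here gives the strand setting of the counting, so reads of overlapping genes cannot be told apart. An exon of Anxa2 overlaps the antisense gene Gm16144, which held 0.27 CPM in LN, 5.17 in Hepa1-6 and 2.72 in E.G7 on average. The S100a4 exons overlap Gm42674 on the same strand, which shared 47.4% of the 50-base words of S100a4 transcripts and had 0 counts in all libraries. For S100a11, 41.1% of the 50-base words also occur in Gm12854, Gm7665 or Gm29240, which together held 5.57 CPM in LN, 24.2 in Hepa1-6 and 15.1 in E.G7, so its level is uncertain by what the counting gave to these copies. For the other 7 genes no 50-base word was shared with another gene.

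Promoters of 4 of the genes are printed because they differ in motif content while the genes moved in the same direction against LN. Each runs from 250 bases before the annotated start to 50 bases after it, 5′ to 3′ on the strand of the gene (RefSeq, GRCm38.p6); capitals mark AP-1 sites (TGANTCA), GC boxes (GGGCGG, or its reverse complement) and TATA boxes (TATAAA). The S100a4 window is chr3:90603520-90603819 (plus), that of S100a11 chr3:93520246-93520545 (plus), that of Anxa2 chr9:69453433-69453732 (plus) and that of Lgals3 chr14:47373610-47373909 (plus).
S100a4: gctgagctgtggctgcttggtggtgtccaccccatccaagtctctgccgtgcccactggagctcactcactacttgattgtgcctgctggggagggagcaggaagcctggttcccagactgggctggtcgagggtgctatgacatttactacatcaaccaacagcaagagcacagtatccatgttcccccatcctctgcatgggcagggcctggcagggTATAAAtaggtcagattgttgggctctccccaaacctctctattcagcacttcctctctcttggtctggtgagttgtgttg
S100a11: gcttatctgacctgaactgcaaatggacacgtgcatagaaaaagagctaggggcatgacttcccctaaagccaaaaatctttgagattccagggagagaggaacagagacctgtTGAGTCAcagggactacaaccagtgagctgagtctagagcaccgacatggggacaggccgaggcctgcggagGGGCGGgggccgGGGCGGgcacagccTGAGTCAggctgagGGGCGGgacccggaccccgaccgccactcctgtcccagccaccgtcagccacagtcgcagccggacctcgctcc
Anxa2: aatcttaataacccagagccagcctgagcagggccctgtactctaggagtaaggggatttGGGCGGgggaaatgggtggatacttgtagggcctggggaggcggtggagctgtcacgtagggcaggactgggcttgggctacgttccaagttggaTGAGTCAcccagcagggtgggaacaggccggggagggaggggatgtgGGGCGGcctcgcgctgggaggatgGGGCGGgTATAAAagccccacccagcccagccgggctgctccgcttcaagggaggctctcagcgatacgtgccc
Lgals3: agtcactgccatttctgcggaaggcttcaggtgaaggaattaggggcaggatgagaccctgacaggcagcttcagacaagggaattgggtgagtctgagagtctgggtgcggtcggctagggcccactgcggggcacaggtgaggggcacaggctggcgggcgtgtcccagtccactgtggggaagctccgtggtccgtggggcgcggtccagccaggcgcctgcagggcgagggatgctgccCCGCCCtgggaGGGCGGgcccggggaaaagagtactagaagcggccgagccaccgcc
Of the 10 genes, 8 had a promoter in the RefSeq table; Lgals1 and S100a10 did not. Motifs were searched on both strands in these 8 and in all 32851 promoters of the table. An AP-1 site occurred in S100a11, at -136 and -38 from the start, and in Anxa2, at -95, and in 7.81% of all promoters. A TATA box occurred in S100a4 at -31, Vim at -32, Anxa1 at -32 and Anxa2 at -17, and in 13.6% of all promoters. GC boxes occurred in S100a11, Anxa2, Crip1 and Lgals3 (35.7% of all), CCAAT in Vim, S100a6 and Lgals3 (37.4%) and the RUNX letters TGTGGT in S100a6 alone, at 3 places (16.8%). NF-kB sites occurred in Vim and Lgals3 (8.46% of all), while a CArG box (1.63% of all) and the STAT letters TTCNNNGAA (8.30%) occurred in 0 of the 8. The only overlap of matches was between 2 NF-kB sites of Vim, at -142 and -141. These matches describe letters in a window and say nothing of binding.

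S100a4, whose protein binds non-muscle myosin, was at 18.7, 20.8, 14.1 and 21.0 CPM in the LN libraries, 90.6, 93.4, 94.2 and 119 in the Hepa1-6 libraries, and 95.2 and 94.8 in the E.G7 libraries. The tumour groups lay above LN without overlap and overlapped each other. S100a4 rose 5.32-fold in Hepa1-6 against LN (log2 2.41, SE 0.12, edgeR adjusted p = 2.24e-10) and 5.09-fold in E.G7 against LN (log2 2.35, SE 0.14). Its neighbour S100a6, which encodes calcyclin, was at 23.3, 25.7, 21.2 and 28.4 CPM in LN, 182, 194, 211 and 265 in Hepa1-6, and 110.3 and 118 in E.G7. Here the 3 groups were separate, with Hepa1-6 highest. S100a6 rose 8.63-fold in Hepa1-6 (log2 3.11, SE 0.12) and 4.62-fold in E.G7 (log2 2.21, SE 0.13) against LN.

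S100a10, which encodes the calcium-insensitive partner of annexin A2, was the S100 member with the highest mean level per length in every group, and it had the smallest Hepa1-6 fold of all 10 genes. It was at 332, 373, 286 and 345 CPM in LN, 691, 628, 729 and 834 in Hepa1-6, and 652 and 678 in E.G7. Its rise was 2.16-fold in Hepa1-6 (log2 1.11, SE 0.089, edgeR adjusted p = 1.16e-07) and 1.99-fold in E.G7 (log2 0.99, SE 0.10), and the tumour groups overlapped. S100a11, the partner of annexin A1, was at 65.8, 65.7, 52.8 and 64.6 CPM in LN, 282, 265, 284 and 313 in Hepa1-6, and 169 and 172 in E.G7. The groups were separate, and S100a11 rose 4.595-fold in Hepa1-6 (log2 2.20, SE 0.074) and 2.75-fold in E.G7 (log2 1.46, SE 0.084) against LN.

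Both annexins rose by larger folds than any S100 member, Anxa1 from a low level in LN (median FPKM percentile 31.6) and Anxa2 from a higher one (74.3). Anxa1, which encodes a ligand of formyl peptide receptors, was at 4.03, 6.40, 5.10 and 3.30 CPM in LN, 144, 138, 156 and 149 in Hepa1-6, and 48.1 and 55.3 in E.G7. It rose 31.1-fold in Hepa1-6 (log2 4.96, SE 0.15, edgeR adjusted p = 8.97e-13) and 10.96-fold in E.G7 (log2 3.45, SE 0.16) against LN, and Hepa1-6 lay above E.G7 in every library. Anxa2, which encodes a membrane scaffold and binding site for plasminogen, was at 51.8, 55.4, 45.2 and 52.7 CPM in LN, 914, 903, 1006 and 961 in Hepa1-6, and 576 and 597 in E.G7. The 3 groups did not overlap, and Anxa2 rose 18.4-fold in Hepa1-6 (log2 4.21, SE 0.066, edgeR adjusted p = 3.02e-17) and 11.4-fold in E.G7 (log2 3.52, SE 0.070).

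The galectins differed from each other in how they divided the tumours. Lgals1 was at 140.1, 167, 120.1 and 158 CPM in LN, 679, 671, 674 and 827 in Hepa1-6, and 820.4 and 858 in E.G7. Hepa1-6 replicate 4 lay among the E.G7 libraries and the other 3 below them. Lgals1 rose 4.87-fold in Hepa1-6 (log2 2.28, SE 0.10, edgeR adjusted p = 5.59e-10) and 5.73-fold in E.G7 (log2 2.52, SE 0.11) against LN. Lgals3 was at 5.85, 7.25, 6.51 and 7.03 CPM in LN, 791, 823, 834 and 834 in Hepa1-6, and 84.0 and 101 in E.G7. It had the largest fold of the 10 genes in both comparisons with LN, 123-fold in Hepa1-6 (log2 6.94, SE 0.083, edgeR adjusted p = 3.51e-18) and 13.9-fold in E.G7 (log2 3.79, SE 0.083). In the same libraries Lyz2, a macrophage marker, and Csf1r, the macrophage growth factor receptor gene, were also ordered Hepa1-6, E.G7, LN, with Csf1r at 430 (mean of 4), 40.3 (mean of 2) and 2.03 CPM (mean of 4); their part in the level of Lgals3 was not tested.

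Vim and Crip1 had high levels in LN and moderate rises. Vim was at 314, 338, 307 and 307 CPM in LN, 951, 961, 937 and 1079 in Hepa1-6, and 588 and 632 in E.G7. It rose 3.10-fold in Hepa1-6 (log2 1.63, SE 0.055, edgeR adjusted p = 2.58e-13) and 1.93-fold in E.G7 (log2 0.95, SE 0.063) against LN, with 3 separate groups. Crip1 was at 148, 163, 131 and 192 CPM in LN, 384, 397, 439 and 465 in Hepa1-6, and 242 and 228 in E.G7. Its groups were separate, and it rose 2.66-fold in Hepa1-6 (log2 1.41, SE 0.10) and 1.48-fold in E.G7 (log2 0.57, SE 0.12, edgeR adjusted p = 0.00156). The E.G7 rise of Crip1 was the smallest of the 20 changes against LN, and it did not pass a test against a 1.5-fold change (adjusted p = 0.509).

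Between the tumours, 7 genes were higher in Hepa1-6 than in E.G7 libraries and 3 did not pass the test. Lgals3 was 8.87-fold higher in Hepa1-6 (log2 3.15, SE 0.088, edgeR adjusted p = 3.21e-13) and Anxa1 2.84-fold higher (log2 1.504, SE 0.15). The other 5 differed by less than 2-fold: S100a6 by 1.87-fold, Crip1 by 1.79-fold, S100a11 by 1.67-fold, Anxa2 by 1.61-fold and Vim by 1.61-fold, each without overlap between the libraries. Against a 1.5-fold change only 4 of the 7 passed, and S100a11 (adjusted p = 0.0568), Anxa2 (0.1001) and Vim (0.0894) did not. S100a4 (log2 0.06, SE 0.14, edgeR adjusted p = 0.743) and S100a10 (log2 0.12, SE 0.11, adjusted p = 0.421) did not pass the test, with overlapping libraries. The log2 difference of Lgals1, in the direction of less in Hepa1-6, was -0.24 (SE 0.12, edgeR adjusted p = 0.127). It was -0.31 (adjusted p = 0.0217) without Hepa1-6 replicate 4 and -0.23 (adjusted p = 0.0423) without LN replicate 3. The part of other cells in the called and uncalled differences between the tumours was not tested.

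**Figure D2:**
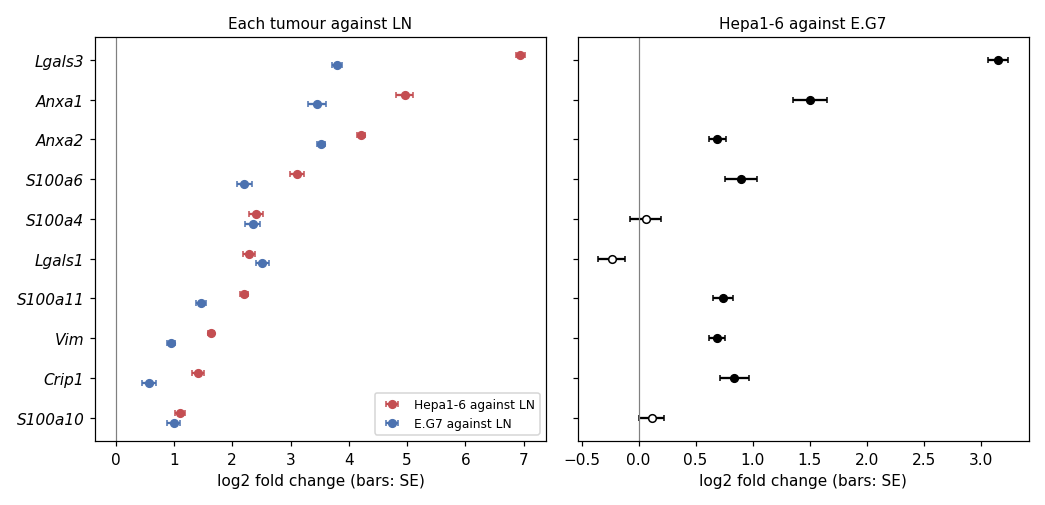
Log2 fold changes of the 10 genes with their SE, each tumour against LN on the left and Hepa1-6 against E.G7 on the right (open circles: adjusted p of 0.05 or more). Lgals3 stands farthest to the right in both panels, at 6.94 and 3.79 against LN and 3.15 between the tumours, and S100a4, S100a10 and Lgals1 are open.

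Per length, in the deposited FPKM (a unit per exon length and library size), the spread of levels among the 10 genes was narrower in tumours. The highest of the 10 stood 135 to 251 times above the lowest in LN libraries, 13.95 to 17.9 times in Hepa1-6 and 50.04 to 55.0 times in E.G7. In LN the order of mean FPKM was S100a10 (278), Lgals1 (163), S100a11 (123), Crip1 (70.1), Vim (67.3), S100a4 (32.1), S100a6 (18.2), Anxa2 (13.9), Lgals3 (3.61) and Anxa1 (1.63), and only Crip1 and Vim overlapped among neighbours. Lgals1 was highest in both tumours, at 785 FPKM in Hepa1-6 and 921 in E.G7, and Anxa1 lowest, at 50.1 and 17.6. Lgals3 moved from the ninth place in LN to the fourth in Hepa1-6 (439 FPKM), behind S100a10 (592) and S100a11 (557), which overlapped, and stayed ninth in E.G7 (49.3 FPKM). In Hepa1-6 the neighbouring ranges of Vim (206 FPKM), Crip1 (184), S100a4 (169) and S100a6 (155) also overlapped. Anxa2 rose in the order from the eighth place in LN to the fifth in both tumours, at 252 and 156 FPKM. Among the 12930 genes of the FPKM table, the median percentile of S100a10 was 99.35 in LN, 99.6 in Hepa1-6 and 99.7 in E.G7, and that of Lgals3 was 44.2, 99.4 and 91.8.

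Since S100A10 and annexin A2, and S100A11 and annexin A1, bind each other, the transcript ratio of each pair was taken within libraries. The S100a10 to Anxa2 FPKM ratio was 19.7, 20.7, 19.5 and 20.2 in LN, 2.33, 2.14, 2.23 and 2.67 in Hepa1-6, and 3.48 and 3.50 in E.G7. The S100 transcript thus stayed above the annexin transcript in each library, by a smaller factor in tumours, and no groups overlapped. For S100a11 to Anxa1 the ratio was 92.9, 58.5, 59.0 and 112 in LN, 11.2, 10.9, 10.4 and 12.01 in Hepa1-6, and 20.1 and 17.8 in E.G7, again with separate groups. For the galectins, Lgals1 to Lgals3 stood at 49.3, 47.5, 38.0 and 46.2 in LN, 1.77, 1.68, 1.66 and 2.04 in Hepa1-6, and 20.1 and 17.5 in E.G7. Over 9 comparisons of log2 ratios, the exact two-sided permutation p was 0.0286 for each ratio in Hepa1-6 against LN (0.0857 after Benjamini-Hochberg adjustment), the smallest that 4 against 4 libraries can give. With E.G7 it was 0.133, the smallest that 4 against 2 can give, so these ratios do not pass the threshold in any comparison.

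**Figure D3:**
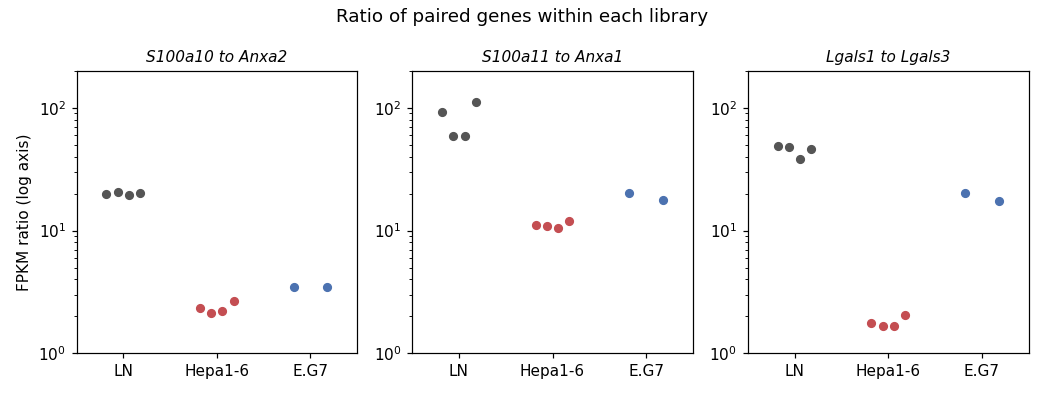
FPKM ratios of 3 gene pairs in each library, on a log axis. The S100a10 to Anxa2 ratio is 19.5 to 20.7 in LN and 2.14 to 2.67 in Hepa1-6, and the Lgals1 to Lgals3 ratio of E.G7 (17.5 and 20.1) lies nearer to LN (38.0 to 49.3) than to Hepa1-6 (1.66 to 2.04).

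Within groups the genes deviated together in some libraries. Hepa1-6 replicate 4 was the highest of its group for 8 of the 10 genes, with a median deviation of 0.14 in log2 CPM from the group mean. LN replicate 3 was the lowest of its group for 7 of 10, with a median deviation of -0.21, while LN replicate 2 was the highest for 6 (median 0.12). In E.G7, replicate 2 was higher for 8 of 10 (median 0.03). Genes with under 1 kb of exon (290 genes of at least 10 CPM) had median deviations of 0.15 in Hepa1-6 replicate 4, -0.15 in LN replicate 3 and 0.16 in LN replicate 2, while the 8643 genes of 1 kb or more had medians between -0.0153 and 0.0153 in all 10 libraries. S100a4, S100a11 and Lgals1 have under 1 kb of exon; the part of length in these deviations was not tested. Leaving out either library, all 10 genes still passed as higher in both tumours against LN.

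**Figure D4:**
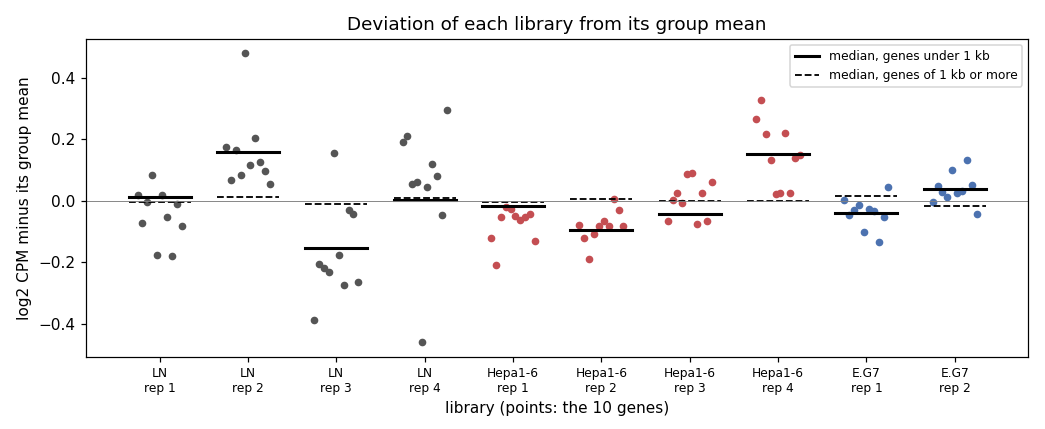
Deviation of each library from its group mean, in log2 CPM, for the 10 genes (points), with the median of genes under 1 kb (solid line) and of genes of 1 kb or more (dashed line). In Hepa1-6 replicate 4 the points lie between 0.02 and 0.33 and the solid line at 0.15, and in LN replicate 3 the solid line lies at -0.15.

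The other genes of these families were less uniform. Of 9 other S100 genes tested, 6 were higher in Hepa1-6 than in LN and 3 were not called (median log2 2.91, beside 0.04 over all genes tested), and 3 were higher in E.G7 than in LN (median 0.67, beside 0.01), a share near the 32.7% of all genes called higher in that comparison. Against E.G7, Hepa1-6 was higher for 4 of the 9 (median 1.79, beside 0.06). Of all genes tested, 37.0% were called higher in Hepa1-6 than in LN and 26.1% higher in Hepa1-6 than in E.G7. S100a13, a factor in the release of proteins that lack a signal peptide, was at 30.8 ± 4.76 CPM in LN and 42.9 ± 4.88 in Hepa1-6 (SD, n = 4 each; edgeR adjusted p = 0.00113), and at 35.01 ± 1.23 in E.G7 (SD, n = 2; adjusted p = 0.248 against LN, or 0.00147 under pan T cell scaling). S100a1, known from heart muscle, was at 0.844 ± 0.143, 19.01 ± 1.71 and 4.42 ± 1.04 CPM in LN, Hepa1-6 and E.G7 and was called in all 3 comparisons. S100a16 was at 10.2 ± 1.25 CPM in Hepa1-6 and at means of 0.0096 in LN and 0.0186 in E.G7. S100a8 and S100a9, whose proteins form calprotectin in neutrophils and monocytes, were at 3.09 and 3.02 CPM in Hepa1-6 and 0.78 and 0.87 in E.G7; in LN, S100a8 was at a mean of 0.0096 CPM and S100a9 had 0 counts, which allows up to 0.0295 CPM.

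Along chromosome 3 S100a4 and S100a6 stand beside S100 genes of low count. S100a3, which ends 1.1 kb before S100a4, was at 0.539 ± 0.187 CPM in LN, 0.412 ± 0.392 in Hepa1-6 (SD, n = 4 each) and 0.721 ± 0.021 in E.G7 (SD, n = 2), and it was not called in any of the 3 comparisons. S100a5, between S100a4 and S100a6, was too low to be tested, at group means of 0 to 0.055 CPM. S100a7a, beyond S100a6, was at 0.38 CPM in Hepa1-6 and had 0 counts in the other groups. S100a14 was at 0.14, 1.07 and 0.24 CPM in LN, Hepa1-6 and E.G7, and was called in Hepa1-6 against LN (adjusted p = 0.0019).

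**Figure D5:**
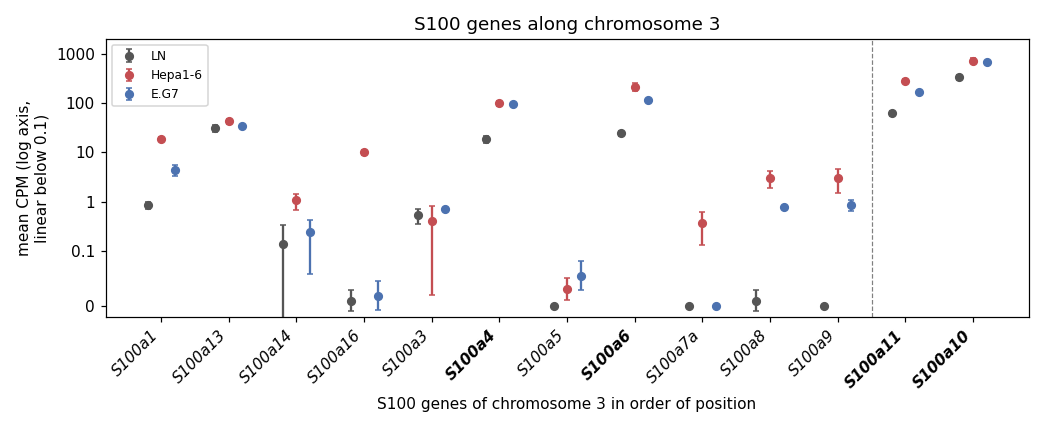
Mean CPM (with SD; LN n = 4, Hepa1-6 n = 4, E.G7 n = 2) of the 13 S100 genes of chromosome 3 in order of position, on a log axis that is linear below 0.1; the dashed line marks the gap before S100a11 and S100a10, and members are in bold. S100a4 and S100a6 lie near 100 CPM or above in tumours, with S100a3 and S100a5 beside them below 1 CPM in every group mean.

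Among the other annexins, 8 of 8 tested were higher in Hepa1-6 than in LN (median log2 2.24) and 5 of 8 in E.G7 than in LN (median 0.43), and 6 of 8 were higher in Hepa1-6 than in E.G7 (median 1.05). Beside these counts, 37.0%, 32.7% and 26.1% of all genes tested were called higher, in that order. Anxa6, a membrane-binding annexin of lymphocytes, was at 585 ± 32.3 CPM in LN and 680.5 ± 5.98 in Hepa1-6 (SD, n = 4 each; log2 0.22, edgeR adjusted p = 0.000522), which did not pass under upper-quartile scaling (adjusted p = 0.458). Anxa5, which binds phosphatidylserine, rose from 119 ± 7.97 CPM in LN to 370 ± 20.98 in Hepa1-6 (SD, n = 4 each; log2 1.63) and 152 ± 3.99 in E.G7 (SD, n = 2; log2 0.35). Anxa4, abundant in epithelial cells, rose from 13.5 ± 1.59 CPM to 329.6 ± 6.901 in Hepa1-6 (SD, n = 4 each; log2 4.61) and 40.4 ± 0.457 in E.G7 (SD, n = 2; log2 1.58).

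The other galectins went in both directions. Of 5 tested, 4 were higher and 1 lower in Hepa1-6 than in LN (median log2 0.36), and 2 were higher and 3 lower in E.G7 than in LN (median -0.41). Hepa1-6 was above E.G7 for 2 and below it for 2 (median 0.07). The shares of all genes called higher and lower were 37.0% and 31.1%, 32.7% and 27.2%, and 26.1% and 19.6%, in the same order. With 5 genes, a count such as 2 higher in E.G7 lies near these shares. Lgals9, whose protein binds Tim-3, was at 262 ± 14.3 CPM in LN, 292 ± 6.24 in Hepa1-6 and 365 ± 1.94 in E.G7 (SD, n = 4, 4 and 2), with log2 changes of 0.16 and 0.48 against LN; the former did not pass without a filter (adjusted p = 0.0729) or with a filter of 10 CPM (0.0681), and had the opposite sign with upper-quartile scaling (-0.0237, adjusted p = 0.674). Lgals8 was at 90.6 ± 3.35, 116 ± 4.65 and 68.2 ± 0.646 CPM and so rose in Hepa1-6 (log2 0.36) and fell in E.G7 (log2 -0.41, edgeR adjusted p = 7.9e-05), the latter not passing under pan T cell scaling (adjusted p = 0.449). Lgals4, an intestinal galectin, fell in both tumours, from 30.4 ± 2.34 CPM in LN to 18.3 ± 1.75 in Hepa1-6 (log2 -0.73) and 17.4 ± 3.23 in E.G7 (log2 -0.80). Lgals7 was at 0.345 ± 0.218, 1.38 ± 0.185 and 4.804 ± 0.909 CPM and was called higher in both, and Lgals12, at 0.205 ± 0.114, 1.49 ± 0.582 and 0.037 ± 0.052 CPM, was called higher in Hepa1-6 and lower in E.G7 (adjusted p = 0.0493).

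Relatives of Crip1 and Vim were mostly higher in tumour libraries. Crip2, Csrp1 and Csrp2, the 3 tested LIM genes of the CRIP and CSRP families, were higher in both tumours than in LN (median log2 3.74 in Hepa1-6 and 1.41 in E.G7). Crip2 was at 2.24 ± 0.702, 83.9 ± 3.17 and 7.84 ± 0.156 CPM in LN, Hepa1-6 and E.G7, Csrp2 at 1.07 ± 0.409, 14.3 ± 0.8797 and 2.84 ± 0.974, and Csrp1, highest in E.G7, at 64.5 ± 9.57, 94.6 ± 21.4 and 136 ± 5.43 (SD, n = 4, 4 and 2). Of 9 other intermediate filament genes and plectin, 8 were higher in Hepa1-6 (median log2 7.85, or 5.27 with genes at 0 counts in a group set to their bound), and 7 were higher and 1 lower in E.G7 (median 2.27, or 1.98 with bounds) than in LN. Those higher in E.G7 include Lmna (17.0 CPM in LN, 220 in E.G7) and Lmnb1 (59.7 and 236). They also include Des, Krt8 and Krt19, at only 0.147, 0.13 and 0.056 CPM in E.G7. The Krt8 call in E.G7 did not pass with limma on log2 of FPKM plus 1 (adjusted p = 0.292). Hepa1-6 was above E.G7 for 7 and below it for 1 (median 4.16). Among all genes tested, 37.0% were called higher in Hepa1-6 than in LN, 32.7% in E.G7 than in LN, and 26.1% in Hepa1-6 than in E.G7. The shares called lower were 31.1%, 27.2% and 19.6%. The keratins Krt8 and Krt18, filaments of epithelial and hepatoma cells, stood at 463 ± 21.8 and 537 ± 19.3 CPM in Hepa1-6 (SD, n = 4), 0.13 and 1.29 CPM in E.G7, and 0.02 and 0.26 in LN. Plec, the gene of the linker protein plectin, was at 292 ± 18.1 CPM in LN, 329 ± 27.7 in Hepa1-6 and 224 ± 3.501 in E.G7 (SD, n = 4, 4 and 2). Its rise in Hepa1-6 (log2 0.17, edgeR adjusted p = 0.0218) was lost without any of 5 single libraries (Hepa1-6 replicates 2 and 3, LN replicates 1, 2 and 4; adjusted p from 0.0548 to 0.0852) and had the opposite sign under upper-quartile scaling (-0.00802), and its fall in E.G7 (log2 -0.38) did not pass under pan T cell scaling (adjusted p = 0.698).

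Genes whose products bind or act with the member proteins went both ways. Of 17 tested, 10 were higher and 7 lower in Hepa1-6 than in LN (median log2 0.50), 8 were higher and 7 lower in E.G7 than in LN (median 0.12), and 11 were higher and 1 lower in Hepa1-6 than in E.G7 (median 0.53). The matching shares of all genes, higher and lower, were 37.0% and 31.1%, 32.7% and 27.2%, and 26.1% and 19.6%. Ahnak, whose giant protein binds the S100A10 and annexin A2 complex, rose from 302 ± 12.4 CPM in LN to 752 ± 26.7 in Hepa1-6 (SD, n = 4 each; log2 1.32) and 522 ± 31.3 in E.G7 (SD, n = 2; log2 0.79). Myh9, the myosin heavy chain bound by S100A4, fell from 662 ± 63.1 CPM to 493 ± 58.8 (log2 -0.42) and 353 ± 17.6 (log2 -0.91), while S100a4 rose in the same libraries. The Hepa1-6 call for Myh9 did not pass under pan T cell scaling (adjusted p = 0.187). The transcripts of several glycoproteins bound by galectin-1 on T cells also fell: Ptprc (CD45) from 2846 ± 85.4 CPM to 1933 ± 57.2 and 1750.0 ± 147, Spn (CD43) from 121 ± 2.89 to 76.3 ± 2.81 and 69.9 ± 5.85, and Cd7 from 29.7 ± 2.47 to 17.8 ± 3.195 and 17.04 ± 1.24, in Hepa1-6 and E.G7 in that order (SD, n = 4, 4 and 2). None of these falls passed the edgeR test against a 1.5-fold change in Hepa1-6 (adjusted p = 0.724, 0.0644 and 0.0851), nor did Cd7 in E.G7 (0.0717). Other genes of this list were called higher in both tumours than in LN. They include Cd44, at 219, 522 and 259 CPM on average in LN, Hepa1-6 and E.G7, Lgals3bp (160, 364 and 243) and Plaur (1.32, 208 and 36.9). Mgat5, the enzyme that builds branched glycans bound by galectin-3, fell from 57.2 ± 5.47 to 29.6 ± 3.003 and 33.2 ± 1.396 CPM. Ager, the gene of the S100 receptor RAGE, fell from 3.47 ± 0.291 to 1.699 ± 0.3402 and 1.63 ± 0.355 CPM, a fall in E.G7 with adjusted p = 0.0597 without E.G7 replicate 1. S100pbp, which encodes an S100-binding protein, fell from 30.1 ± 3.03 to 22.3 ± 1.63 and 22.6 ± 0.075 CPM, a fall that did not pass under pan T cell scaling (adjusted p = 0.183 and 0.648), or in E.G7 without replicate 2 (0.0525).

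A list of T cell surface and cytoskeleton genes raised after antigen experience gave calls in both directions. Of 20 genes, 12 were higher and 4 lower in Hepa1-6 than in LN (median log2 0.27; 37.0% and 31.1% of all genes), 6 were higher and 8 lower in E.G7 than in LN (median -0.05; the share higher is near the 32.7% of all genes, and 27.2% of all genes were lower), and 16 were higher in Hepa1-6 than in E.G7 (median 0.38). The share of all genes called higher in Hepa1-6 than in E.G7 was 26.1%. Pan T cell scaling gave 18 higher and 1 lower in Hepa1-6 and 11 higher and 4 lower in E.G7, and the test against a 1.5-fold change gave 6 higher and 0 lower in Hepa1-6 and 2 higher and 1 lower in E.G7. Tagln2, an actin-binding protein gene, rose from 135 ± 10.3 CPM in LN to 562 ± 18.4 in Hepa1-6 (log2 2.05) and 381 ± 18.9 in E.G7 (log2 1.495), and Cd44, a memory marker, from 219 ± 9.16 to 522 ± 21.4 (log2 1.25) and 259 ± 1.37 (log2 0.24; SD, n = 4, 4 and 2). The Cd44 call in E.G7 did not pass with upper-quartile scaling (adjusted p = 0.0773). Actg1 (779 ± 34.8, 1779.7 ± 46.4 and 1030.2 ± 20.1 CPM), Cfl1 (1732 ± 138, 2148 ± 60.6 and 2240.4 ± 131) and Ezr (356 ± 9.66, 560.4 ± 8.08 and 492 ± 32.1) were higher in both tumours than in LN. Actb (20651 ± 807, 24194 ± 1238 and 16922 ± 1061 CPM) rose in Hepa1-6, a call lost under upper-quartile scaling (log2 0.0484, adjusted p = 0.341), and its log2 change in E.G7 of -0.29 had the opposite sign under pan T cell scaling (0.0552). Coro1a fell in both tumours, from 2484 ± 167 to 1811 ± 75.6 and 1609 ± 35.3 CPM. Itgb7 and Msn fell by 0.53 and 0.50 on the log2 scale in E.G7, and by 0.19 and 0.15 in Hepa1-6, where pan T cell scaling turned the sign (0.102 and 0.136). For Tmsb10 the log2 change was -0.28 in Hepa1-6 (edgeR adjusted p = 0.0187), and 0.0108 under pan T cell scaling; the call was lost without Hepa1-6 replicate 2 (0.0545) or LN replicate 4 (0.0507). Tmsb4x changed by -0.32 in E.G7 (adjusted p = 0.0282), and by 0.0239 with that scaling; the call was lost without E.G7 replicate 1 (0.204) or 2 (0.0903). Lcp1 rose in Hepa1-6 (log2 0.47) and was not called in E.G7 (log2 0.07, adjusted p = 0.302), but passed there under pan T cell scaling (log2 0.42, adjusted p = 6.14e-06) and without E.G7 replicate 2 (adjusted p = 0.041).

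The 10 genes had unlike profiles over the libraries, and the closest pair was S100a4 and Lgals1, with a root mean square distance of 0.12 between their centred log2 CPM over the 10 libraries. Vim and Crip1 followed at 0.20, and S100a10 and Lgals3 were farthest apart, at 2.61. Among 9075 other genes of at least 10 CPM, the 5 nearest to the mean profile of the 10 were Ctsz (0.067), which encodes cathepsin Z, Padi2 (0.086), an arginine deiminase gene, Tnfrsf9 (0.093), which encodes the costimulatory receptor 4-1BB, Gpr160 (0.112) and Ehd4 (0.118). Tnfrsf9 was at 205 ± 16.5 CPM in LN, 1555 ± 10.2 in Hepa1-6 and 831 ± 4.55 in E.G7 (SD, n = 4, 4 and 2), and Ctsz at 83.7 ± 8.76, 683 ± 28.5 and 369 ± 4.26. The nearest to Lgals1 were Rnf125 (0.1302), an E3 ubiquitin ligase gene, and Pgk1 (0.142), a glycolytic enzyme gene. Those nearest to S100a4 were Pgk1 (0.128) and Ifrd1 (0.180). Pgk1 was at 116 ± 7.72, 605 ± 20.2 and 577 ± 6.14 CPM in LN, Hepa1-6 and E.G7, with the tumours at like levels as for S100a4.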

How the data were processed

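RNA was sequenced on a BGISEQ-500, per the labels' protocols. The deposited table holds whole-number read counts per gene, in featureCounts layout per the file headers, and the authors also deposited FPKM per library for 12930 genes. The submitters' processing notes name HISAT2, featureCounts, Subread, RSEM, DESeq2 and mm10; roles, versions, annotation and strand setting are not given in the sources used here. Groups came from the sample titles.

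Tests on the counts used edgeR 4.0.16 (R 4.3.3): filterByExpr, TMM scaling and 1 robust quasi-likelihood model over 10 libraries (20068 genes, biological coefficient of variation 13%), with 3 contrasts and Benjamini-Hochberg adjusted p below 0.05. SE is the log2 fold change over the square root of F. The model was tested on simulated data with known changes. Ratios used deposited FPKM and scipy 1.17.1. Replicates differed by more than sampling noise in every pair.

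Alternatives were DESeq2 1.42.0, limma 3.58.1 (voom, and log2 of FPKM plus 1 or 0.1), RLE, upper-quartile and pan T cell scaling, other filters, a replicate block, fits of only the groups compared, leaving out each library and a test against a 1.5-fold change. Upper-quartile scaling moved the median log2 change of all genes by -0.17 in Hepa1-6 against LN, and pan T cell scaling by 0.29 (0.34 in E.G7 against LN). The share of calls that were higher in Hepa1-6 against LN was 54.3%, or 69.9% with pan T cell scaling, and in E.G7 against LN 54.6%, or 72.3%.

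The members and lists were chosen with earlier results of these data known. Beside the members, the text names from each list the 3 genes with the highest mean CPM and those called against the majority of their list, the S100 genes of chromosome 3, and the genes nearest in profile; other named list genes were chosen after their values were seen. The 0-count bound is 3 counts over a group, and covers counting error only.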

Additional observations from a re-analysis of the deposited data

Results flagged for a closer look

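In 4 of 20 groups of 4 libraries (10 genes in LN and Hepa1-6), 1 library stood apart from the other 3 by Dixon's criterion. Chance alone gives about 1 in 20. The 10 genes share the same libraries and deviated together in some, so the 4 are not independent of each other. S100a4 was at 119 CPM in Hepa1-6 replicate 4, Lgals1 at 827 CPM and Vim at 1079 CPM in the same library, each above the other 3. S100a11 was at 52.8 CPM in LN replicate 3, below the other 3. Genes with under 1 kb of exon deviated in these libraries by a median of 0.15 and -0.15 in log2 CPM, and by 0.16 in LN replicate 2; Vim has 4743 bases of exon. The part of length was not tested.

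The change against LN differed between Hepa1-6 and E.G7 for 7 genes, by the test of Hepa1-6 against E.G7. The shared LN libraries cancel in that test. Tumour line and day both differ between these groups, and the part of other cells was not tested. The log2 difference was 3.15 for Lgals3, 1.504 for Anxa1, 0.90 for S100a6, 0.84 for Crip1, 0.74 for S100a11, 0.69 for Anxa2 and 0.69 for Vim.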

How the results depend on the processing

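All 10 genes remained higher in Hepa1-6 than in LN in each alternative, and in E.G7 than in LN in each but 1, the test against a 1.5-fold change (Crip1). In Hepa1-6 against E.G7, 4 instead of 7 were called higher in that test. The count called lower there was 1 instead of 0, Lgals1, with only the groups compared (log2 -0.31), pan T cell scaling (-0.29) and upper-quartile scaling (-0.30), and 0 to 1 when single libraries were left out. The replicate block gave 10, 10 and 7 genes called higher in the 3 comparisons. Whether replicate numbers pair the libraries is not known. Deviations of same-numbered libraries from their group means had correlations from -0.049 to 0.029. These do not settle it, since libraries may be paired without deviating alike. The block changed no call of the 10 genes. Signs turned with pan T cell scaling for Itgb7 (0.102), Msn (0.136) and Tmsb10 (0.0108) in Hepa1-6 against LN and for Actb (0.0552) and Tmsb4x (0.0239) in E.G7 against LN, and with upper-quartile scaling for Lgals9 (-0.0237) and Plec (-0.00802) in Hepa1-6 against LN; these scalings shift all genes. Differences rest on 2 libraries in E.G7, and counts under about 1 CPM, as for S100a3, limit what could be detected.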
